A study of Mus musculus and Homo sapiens with 22 samples.

Results

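The 5 mRNAs described here encode core transcription factors of the mouse embryonic stem (mES) cell: Pou5f1 (the POU factor also called OCT4), Nanog (a homeodomain factor), Sox2 (an HMG-box factor that pairs with OCT4 on DNA), Esrrb (an orphan nuclear receptor) and Mycn (a MYC family factor tied to growth and proliferation). They were chosen by name, with earlier results of these data known. Their Lin28A sites are the deposited sites on the gene's own strand within its annotated bounds, 26 of 10990 sites in Mettl3 wild-type (WT) cells and 36 of 11285 in Mettl3 knockout (KO) cells. RNA structure scores were read for 1 transcript each of Pou5f1 (ENSMUST00000025271, 1362 nt), Nanog (ENSMUST00000012540, 2211 nt) and Sox2 (ENSMUST00000099151, 2057 nt). The files hold transcript identifiers without gene names, so this pairing is the one given with the choice of members. Esrrb and Mycn were followed in the site lists only.

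The factors form a network in which OCT4, SOX2 and NANOG bind each other's genes and many shared targets, and ESRRB supports the naive state alongside them. Their mRNAs are also handled after transcription. Lin28A is an RNA-binding protein of early embryonic cells that blocks maturation of the let-7 microRNAs and binds many mRNAs, often at sequences holding GGAG. Mettl3 is the catalytic subunit of the complex that writes N6-methyladenosine on mRNA, and pluripotency mRNAs are among its known substrates.

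The series probed RNA structure by icSHAPE in cell fractions and mapped Lin28A-bound RNA by irCLIP, which crosslinks proteins to RNA with ultraviolet light before precipitation. In icSHAPE the reagent NAI-N3 reacts with flexible nucleotides, and a score from 0 to 1 is higher where a nucleotide reacted more. All cells used here were of the V6.5 mES line, grown on gelatin with LIF. The icSHAPE groups were chromatin, nucleoplasm and cytoplasm of mES cells, treated with the reagent either as living cells (in vivo) or as purified and refolded RNA (in vitro), and the irCLIP groups were anti-Lin28A precipitates from Mettl3 WT and Mettl3 KO mES cells. The sources used here do not say how the knockout was made or how many clones it comprises. Each group held 1 sample, so no difference below has a replicate check and no p-value between groups is given. Intervals cover counting error only. Samples with solvent in place of reagent, and anti-GFP precipitates, were not analysed here.

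The 6 mES icSHAPE files listed from 3247 to 12060 transcripts, and read depth is not given in them. The cell type label was set against marker genes in the site lists: beside Pou5f1, Nanog, Sox2 and Esrrb themselves, the other 6 embryonic stem cell markers, Lin28a among them, held a site over that gene alone in both lists, where 16.4% of 21900 protein-coding genes had one in WT and 17.2% in KO. None of the 16 primitive endoderm, neural, mesoderm and trophoblast markers did. Of 4 fibroblast feeder markers, Acta2 held 1 WT site with a score of 14. A site needs both the RNA and its binding by Lin28A, so a marker without a site is not shown to be unexpressed.

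Positions are on GRCm38.p6, the assembly behind mm10. Pou5f1 lies at chr17:35506032-35510777 on the plus strand, Nanog at chr6:122707489-122714633 on the plus strand, and Sox2 at chr3:34649995-34652461 on the plus strand. Esrrb lies at chr12:86361117-86521628 on the plus strand and Mycn at chr12:12936093-12941836 on the minus strand. The annotation used gives gene bounds and start sites without exons, so sites are placed by distance from a gene's start or end and not by exon, intron or UTR. Sites fall on a grid of 50 nt, and the score is the authors' own value. It is not known to be on 1 scale in both lists. A 50-nt site with a score of 13 had a larger p-value by the authors in WT than in KO. WT and KO scores given side by side are therefore not a measured change.

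Only 2 member sites reach into the annotated stretch around a start site for which RefSeq sequence was at hand, and these stretches are shown because they are the Lin28A-bound bases that can be read. The first site of Pou5f1 begins 19 nt after the gene start and was called with identical bounds in both lists, and its first 30 nt are at chr17:35506051-35506080 on the plus strand. The WT site of Mycn nearest its start has no KO site over it, and the 14 nt that can be read are at chr12:12941787-12941800 on the minus strand. Capitals would mark the motif GGAG on the RNA strand.
Pou5f1, both lists: gtgagccgtctttccaccaggcccccggct
Mycn, WT list only: cggggggctcctgg
Neither stretch held GGAG. Of 32851 annotated promoter rows, 22.3% held GGAG in their last 30 nt and 9.71% in their last 14 nt. These windows cover part of each 50-nt site, and no match says only that the letters are not in the window.

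Every one of the 5 mRNAs carried Lin28A sites in both genotypes. Among 17492 protein-coding genes with a known strand, 15.2% had a WT site, 16.2% a KO site and 13.0% both. The members were chosen with earlier results of these data known, so these percentages are no test of enrichment. Sox2 had 7 WT and 11 KO sites, Pou5f1 6 and 7, Esrrb 4 and 9, Nanog 2 and 6, and Mycn 7 and 3. The number was thus higher in the KO list for 4 members and lower for Mycn. The median gene with a site had 1 site in either list.

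The KO share of a member's sites had a wide counting interval in each case. It was 75.0% (exact 95% interval 34.9 to 96.8) for Nanog, 69.2% (38.6 to 90.9) for Esrrb and 61.1% (35.7 to 82.7) for Sox2. For Pou5f1 it was 53.8% (25.1 to 80.8) and for Mycn 30.0% (6.67 to 65.2). All 5 intervals include equal numbers. Among 784 genes with 5 or more sites in the lists together, the KO number was at least 1.5 times the WT number in 19.3% and the WT number at least 1.5 times the KO number in 20.2%. Nanog, Sox2 and Esrrb met the former and Mycn the latter.

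For Nanog, Sox2, Esrrb and Mycn the difference in number lay mostly or wholly in weak sites. The KO site of Pou5f1 that overlapped no WT site was weak too (score 14). At or above the median score of its list (20 in WT and 19 in KO), Sox2 had 3 sites in each list and Mycn 3 in each. Esrrb had 3 WT and 4 KO sites, Pou5f1 4 and 6, and Nanog 0 and 1. For Pou5f1, shared sites scoring 17 and 18 in WT scored 19 and 26 in KO. They therefore counted as below the median in WT only. Below the median, the KO list held 8 Sox2 sites, 5 Nanog sites, 5 Esrrb sites, 1 Pou5f1 site and no Mycn site, and the WT list held 4, 2, 1, 2 and 4. The lowest score was 13 in the WT list and 12 in the KO list, so the lists did not end at the same score. Their largest p-values by the authors were nearly the same.

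**Figure D1:**
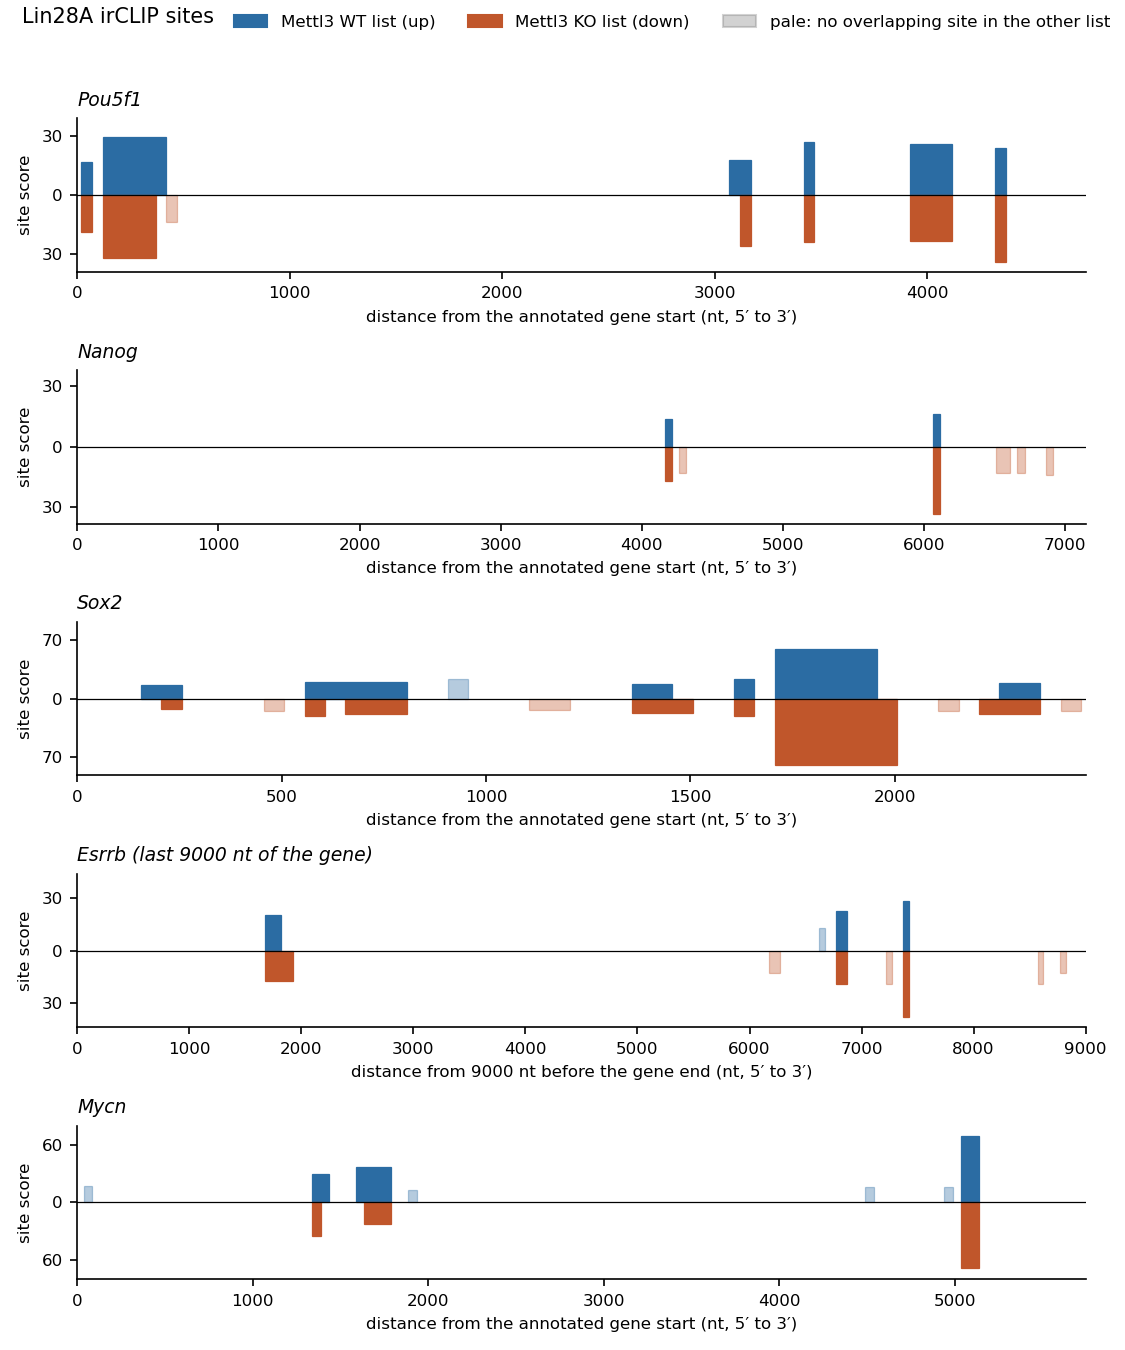
Lin28A sites along the 5 genes, one panel per gene, with WT sites drawn upward and KO sites downward. The horizontal axis is the distance in nt from the annotated gene start (for Esrrb, from 9000 nt before the gene end, which leaves out 2 KO sites farther upstream), bar width is the site's width and bar height its score, and pale bars have no overlapping site in the other list. The tallest bars of Sox2 and Mycn stand at the same place in both lists, and the pale bars reach at most 23 in WT and 19 in KO.

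Sox2 had the highest summed site score of the 5 in each list, ranking 87 among 2656 genes with a WT site and 48 among 2831 with a KO site. Its sites covered 36.5% of the gene in the WT list and 46.6% in the KO list. The leading site lay at chr3:34651701-34651950 in WT (score 59.6) and at chr3:34651701-34652000 in KO (score 79.5), ending 511 and 461 nt before the gene end. These scores stood at the 89.9th and 93.6th percentile of their lists. The other Sox2 sites scored from 16 to 23 in WT and from 12 to 21 in KO, so 1 region carried most of the score in both genotypes.

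Of the 7 WT sites of Sox2, 6 overlapped a KO site, and 7 of its 11 KO sites touched a WT site. The WT-only site at chr3:34650901-34650950 (score 23) lay 100 nt from the nearest KO site. The 4 KO-only sites scored from 13.5 to 15 and lay between 50 and 150 nt from a WT site. They lay between or beside shared sites, the last of them ending 11 nt before the gene end. The long noncoding RNA gene Sox2ot encloses Sox2. Outside the Sox2 bounds it held 1 WT and 1 KO site, neither of them on the plus strand.

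Pou5f1 kept nearly the same sites in both genotypes. All 6 WT sites overlapped a KO site, and 6 of 7 KO sites overlapped a WT site. The exception, at chr17:35506451-35506500 (score 14), directly adjoined the WT site before it. The sites formed a group that began within 500 nt of the gene start and a group from 3069 nt onward, with none between them. The gene has a second annotated start at position 35508807, and 4 sites of each list lay downstream of it.

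The widest Pou5f1 site, at chr17:35506151-35506450 in WT (score 29.7) and chr17:35506151-35506400 in KO (score 32), belonged to the group near the start. Toward the 3′ end, the site at chr17:35510351-35510400 scored 24 in WT and 34 in KO, the highest Pou5f1 score in the KO list. The site at chr17:35509951-35510150 scored 26 and 23.3. Pou5f1 ranked 135 and 128 by summed score in the WT and KO lists.

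Nanog had the fewest and weakest WT sites. The WT sites at chr6:122711651-122711700 and chr6:122713551-122713600 scored 14 and 16, and both were called with the same bounds in KO, at 17 and 33. The latter stood at the 28.8th percentile of the WT list and the 78.4th of the KO list, which are lists of different length. The 4 KO-only sites scored 13 or 14, and 3 of them ended between 233 and 533 nt before the gene end. Nanog ranked 1494 by summed score among WT genes and 473 among KO genes.

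Esrrb spans 160512 nt, yet all 4 WT sites and 7 of 9 KO sites lay within 8000 nt of its end, downstream of both annotated starts. The strongest, at chr12:86520001-86520050, scored 28 in WT and 38 in KO. The sites at chr12:86519401-86519500 scored 22.5 and 19. Both had identical bounds in the lists. Of the 6 KO-only sites, 2 scored 19 and the others 12 or 13, and 2 of the weak ones lay 15778 and 51278 nt before the gene end. The WT-only site scored 13.

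Mycn differed in direction from the other 4, with 4 WT-only sites and no KO-only site. Its leading site, at chr12:12936701-12936800 and 608 nt before the gene end, scored 70 in WT and 69 in KO, the 91.8th and 92.3rd percentile. The sites at chr12:12940051-12940250 in WT (score 37.5) and chr12:12940051-12940200 in KO (score 23) overlapped, as did those at chr12:12940401-12940500 (30) and chr12:12940451-12940500 (35). All 3 strong sites were thus present in both genotypes. The WT-only sites scored from 13 to 17, and 1 of them was the site 36 nt after the gene start shown above.

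Over all 5 mRNAs, WT sites were shared about as often as WT sites in general, while the KO percentage was lower, with an interval that includes that of the whole list. Of 26 WT sites, 20 overlapped a KO site (76.9%, exact 95% interval 56.4 to 91.0), beside 75.1% of all WT sites. Among 36 KO sites, 21 were shared (58.3%, 40.8 to 74.5), beside 72.9% over the whole KO list. Sites of 1 gene are not independent, so the intervals are too narrow.

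The KO-only sites were mostly weak ones. Below the KO median score 6 of 19 member sites were shared (31.6%, 12.6 to 56.6, beside 52.8% of all such sites), and at or above it 15 of 17 (88.2%, 63.6 to 98.5, beside 92.6%). An alternative chosen after seeing the data left out KO sites under the lowest WT score. Of the 34 member sites kept, 20 were shared (58.8%, 40.7 to 75.4, beside 77.3% of all such sites). The last percentage lies above the interval, which is too narrow because sites of the same gene are not independent. Before this cut, the largest p-value by the authors was nearly the same in both lists. The cut therefore held 50-nt KO sites to a smaller p-value than 50-nt WT sites. It did not level the lists, and no conclusion is drawn from it. Counted in 50-nt tiles, 42 of 54 WT tiles (77.8%, beside 74.9%) and 42 of 65 KO tiles (64.6%, beside 72.4%) were in both lists. In the last 20% of the gene lay 10 of 26 WT sites (38.5%, beside 41.4% of all sites placed) and 18 of 36 KO sites (beside 43.1%).

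Other genes of the pluripotency network were read from a list of 42, also chosen with earlier results of these data known. A site over that gene alone, on either strand, was present for 29 of them in at least 1 list, beside 19.6% of 21900 protein-coding genes, and the totals were 167 WT and 156 KO sites. Among 13 naive-state factors 9 had sites, led by Zfp42, the marker REX1 (4 WT and 4 KO), Klf4, a reprogramming factor (3 and 5), and Tfcp2l1, a naive-state transcription factor (3 and 4). Among 17 partners and targets enriched in these cells 16 had sites, led by Tet1, a 5-methylcytosine dioxygenase (31 and 29), the corepressor Trim28 (18 and 18) and Jarid2, a Polycomb partner (16 and 16). Of 6 LIF, Wnt and repressor genes 3 had sites: Ctnnb1, which encodes beta-catenin (19 and 13), the LIF receptor gene Lifr (1 and 2) and the kinase gene Gsk3b (1 and 1).

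Of 6 other genes of the MYC network, only Mga, a MAX partner, had sites (8 and 8), while Myc, Mycl, Max, Mxd1 and Mnt had none in either list. Sites in a single list were found for Tbx3 (1 KO), Lefty2 (2 KO), Stat3 (1 WT) and Dppa4 (1 WT). The list as a whole thus had slightly fewer KO than WT sites, where the 5 core mRNAs had more. The counting rules differ: core mRNAs were counted on the gene strand, and the list over that gene alone on either strand. By the list's rule Sox2, enclosed by Sox2ot, had no site in either list. The contrast between list and core mRNAs was not tested.

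The abundance signal deposited with the icSHAPE scores, in a unit that no source used here states, placed the 3 mRNAs differently across the cell. For Pou5f1 it was 48.1 for chromatin, 133 for nucleoplasm and 299 for cytoplasm in vivo, and 14.3, 84.9 and 300.5 in vitro. For Sox2 it was 49.4, 99.5 and 86.6 in vivo and 16.2, 74.4 and 77.2 in vitro. For Nanog it was 18.5, 60.1 and 82.6 in vivo and 46.3 and 74.1 in nucleoplasm and cytoplasm in vitro, and Nanog was not listed in the chromatin in vitro file. Pou5f1 therefore had the highest cytoplasmic signal of the 3, and Sox2 was nearly level between nucleoplasm and cytoplasm.

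On the scale log2(signal + 1), cytoplasm minus nucleoplasm was 1.16 for Pou5f1, 0.45 for Nanog and -0.20 for Sox2 in vivo, where the median of 8955 transcripts was 0.56. In vitro the differences were 1.81, 0.67 and 0.05, with a median of 0.88 over 5894 transcripts. Pou5f1 lay above the median and Sox2 and Nanog below it in both. The percentiles were 83.3 and 99.1 for Pou5f1, 43.6 and 35.6 for Nanog, and 17.9 and 16.6 for Sox2. Fractions can hold different amounts of RNA per cell, and a signal within a file does not show that amount.

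**Figure D2:**
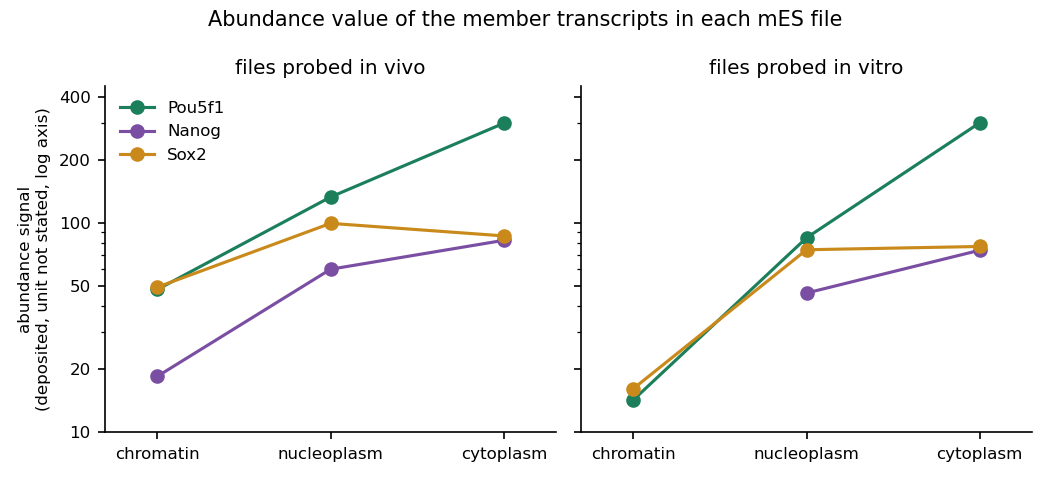
Deposited abundance signal of the Pou5f1, Nanog and Sox2 transcripts (log axis, unit not stated) in each cell fraction, with in vivo files on the left and in vitro files on the right. Each point is 1 file, and Nanog has no point in chromatin in vitro. Pou5f1 reaches 299 and 300.5 in cytoplasm, while Sox2 lies between 74.4 and 99.5 in nucleoplasm and cytoplasm.

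In cytoplasm, the deposited scores of all 3 mRNAs were higher on average in living cells than after refolding. The mean score over nucleotides scored in both files was 0.259 in vivo and 0.201 in vitro for Nanog (2157 nt, ratio 1.29), 0.228 and 0.165 for Sox2 (2007 nt, ratio 1.38), and 0.231 and 0.193 for Pou5f1 (1325 nt, ratio 1.20). A higher mean in vivo was found for 87.2% of 5673 transcripts, and a mean at least 25% higher for 41.9%. Nanog and Sox2 were past that limit and Pou5f1 was not. With scores replaced by ranks within the file, the ratios were 1.05 for Nanog and 1.08 for Sox2, both short of the limit, and 1.12 and 1.14 over nucleotides above 0 in both files. For Pou5f1 the direction turned with ranks (ratio 0.993) and over the 348 nt scored in all 6 files (ratio 0.95). Scores of exactly 0 made up 23.7% of the Sox2 nucleotides in vivo and 46.3% in vitro.

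In nucleoplasm the means were nearly equal. They were 0.199 in vivo and 0.194 in vitro for Pou5f1, 0.230 and 0.220 for Nanog, and 0.202 and 0.200 for Sox2. All 3 were slightly higher in vivo, as were 64.7% of 8608 transcripts. No member was at least 25% higher or 20% lower, beside 16.8% and 4.62% of transcripts. These small differences changed sign for Sox2 with ranks (-0.00368), and for Pou5f1 over nucleotides above 0 in both files (-0.00663) and over those scored in all 6 files (-0.0505). Over the nucleotides scored in all 6 files, the nucleoplasm ratio was 0.777 for Pou5f1, past the lower limit, and 1.53 for Sox2, past the upper. Across nucleotides, the in vivo and in vitro profiles in nucleoplasm had a Pearson r of 0.673 for Pou5f1, 0.592 for Nanog and 0.622 for Sox2, above the median of 0.562 over all transcripts.

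On chromatin, Sox2 was more reactive in vivo than after refolding. Its mean was 0.311 in vivo and 0.132 in vitro over 584 nt, a ratio of 2.35 and a difference at the 99.6th percentile of 2072 transcripts. Of these, 66.7% were higher in vivo and 38.8% at least 25% higher. The Pou5f1 means were 0.169 and 0.151 over 348 nt, a direction that turned with ranks (-0.00186) and over nucleotides above 0 in both files (-0.0182). Only 28.4% of Sox2 and 25.6% of Pou5f1 nucleotides were scored on chromatin. Of the 584 Sox2 nucleotides, 410 lay in the last of 3 equal parts of the transcript. Over the same 584 nt, the in vivo over in vitro ratio was 1.98 in cytoplasm and 1.53 in nucleoplasm. The chromatin means therefore do not rest on the same nucleotides as the means given above for those fractions. On chromatin, zeros made up 12% of the Sox2 scores in vivo and 53.6% in vitro. Over the 264 nt above 0 in both files the Sox2 difference was 0.165, beside 0.179 over all shared nucleotides, and the ratio was 1.57. With ranks the ratio was 1.39.

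Between compartments in vivo, Sox2 was more reactive on chromatin and Nanog less. Over the same nucleotides, Sox2 had a mean of 0.311 on chromatin and 0.195 in nucleoplasm (ratio 1.60), where 77.0% of 2305 transcripts were higher on chromatin and 42.5% at least 25% higher. Nanog had 0.130 and 0.215 over 308 nt (ratio 0.604, at the 2.82nd percentile of the differences), beside 12.2% of transcripts at least 20% lower. Pou5f1 had 0.169 and 0.176. Against cytoplasm the ratio was 1.69 for Sox2 (27.1% of 1530 transcripts were at least 25% higher), 0.554 for Nanog and 0.764 for Pou5f1 (17.1% were at least 20% lower).

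With ranks, the Sox2 ratios of chromatin over nucleoplasm and cytoplasm were 1.13 and 1.17 and the Pou5f1 ratio over cytoplasm 0.839, none of them past the limits. The scored chromatin nucleotides of Nanog made up 13.9% of its length and ended at position 1337. Nucleoplasm over cytoplasm gave ratios of 0.878 for Pou5f1, 0.886 for Nanog and 0.887 for Sox2. All 3 were lower in nucleoplasm, where 29.4% of 7398 transcripts were higher, and none was past the limits, beside 7.0% past the upper and 11.7% past the lower. Over nucleotides scored in all 6 files, the Sox2 ratio turned to 1.06 and the Pou5f1 ratio was 0.793, past the lower limit.

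**Figure D3:**
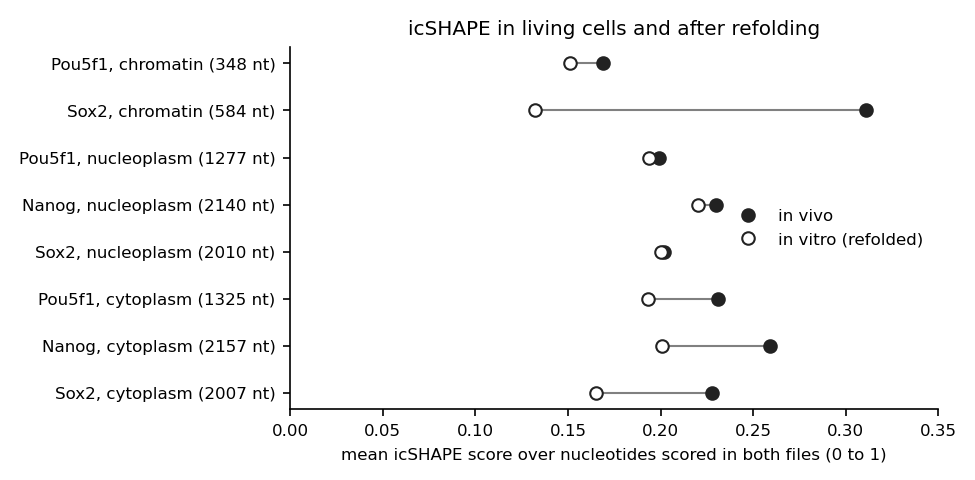
Mean icSHAPE score (0 to 1) of the Pou5f1, Nanog and Sox2 transcripts in each cell fraction, over the nucleotides scored in both files (number in parentheses), with filled circles for in vivo and open circles for in vitro. Each circle is 1 file. The gap is widest for Sox2 on chromatin, at 0.311 and 0.132, and the nucleoplasm circles nearly coincide. The fractions of a transcript do not rest on the same nucleotides.

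Along the transcripts in nucleoplasm and cytoplasm, refolded RNA was less reactive toward the 3′ end. In living cells this was seen only in cytoplasm, for Sox2 and slightly for Nanog. Each transcript was cut into 3 equal parts, a choice made after the values were seen. In nucleoplasm in vitro the mean went from 0.246 in the first part to 0.167 in the last for Pou5f1, from 0.272 to 0.160 for Nanog and from 0.263 to 0.123 for Sox2. In vivo the same means were 0.180 and 0.233, 0.229 and 0.254, and 0.201 and 0.216. The last part was thus lower than the first in vitro and higher in vivo for all 3 mRNAs in nucleoplasm.

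In cytoplasm in vitro the mean went from 0.259 to 0.157 for Pou5f1, from 0.269 to 0.125 for Nanog and from 0.239 to 0.0825 for Sox2. In vivo it was 0.240 and 0.248 for Pou5f1, 0.277 and 0.261 for Nanog, and 0.277 and 0.193 for Sox2. Sox2 and, by less, Nanog were thus also lower in the last part in living cells. A lower last part in vitro was common: it was found for 82.9% of 4074 transcripts in nucleoplasm and 79.4% of 2490 in cytoplasm. In vivo a lower last part was found for 55.9% of transcripts in nucleoplasm and 75.1% in cytoplasm. The in vitro change of the members lay between the 1.55th and 15.2nd percentile in the 2 compartments. On chromatin, where only Sox2 had enough scored nucleotides in each part, refolded Sox2 was nearly level (0.131 and 0.129, beside 57.7% of 723 transcripts with a lower last part), and in vivo the means were 0.115 and 0.360. The first part rests on 52 scored nucleotides and the last on 410.

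**Figure D4:**
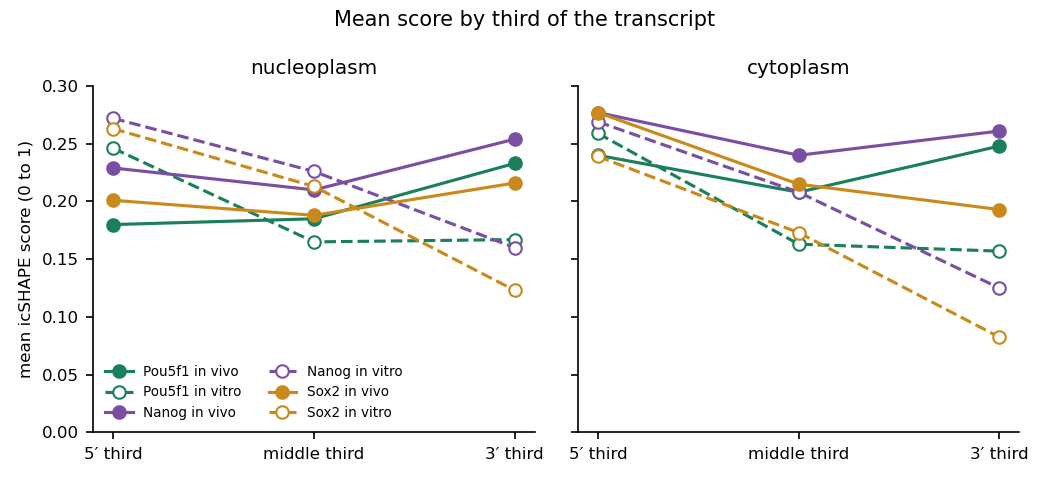
Mean icSHAPE score (0 to 1) in the 5′, middle and 3′ parts of the Pou5f1, Nanog and Sox2 transcripts, with nucleoplasm on the left and cytoplasm on the right, solid lines for in vivo and dashed lines for in vitro. Each point is a mean over the scored nucleotides of 1 file. The dashed lines end lowest, with Sox2 in cytoplasm at 0.0825.

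In nucleoplasm and cytoplasm, the window in which living cells most exceeded refolded RNA lay in the last of the 3 parts, except in Sox2 in cytoplasm, where it was in the middle part. In 50-nt windows, the Nanog mean in cytoplasm at positions 1681 to 1730 was 0.480 in vivo and 0.157 in vitro. The Pou5f1 mean at 911 to 960 in cytoplasm was 0.380 and 0.114, and at 1231 to 1280 in nucleoplasm 0.353 and 0.0709. For Sox2 in cytoplasm it was 0.315 and 0.0753 at 1001 to 1050. In the opposite direction, the nucleoplasm window most in favour of refolded RNA lay in the middle part of Sox2 and Nanog. It had 0.180 in vivo and 0.425 in vitro at 741 to 790 of Sox2, and 0.199 and 0.401 at 831 to 880 of Nanog. In Pou5f1 it lay near the 5′ end, at 21 to 70, with 0.157 and 0.347.

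A stretch of Pou5f1 stayed low in every nucleoplasm and cytoplasm file. Its lowest windows began at position 451 or 461, with means of 0.0683 in vivo and 0.0468 in vitro in nucleoplasm and 0.0678 and 0.0407 in cytoplasm. The Pou5f1 profile was also much alike between compartments in vivo. Across nucleotides, Pearson's r was 0.903 for chromatin and nucleoplasm (348 nt), 0.910 for chromatin and cytoplasm (348 nt) and 0.881 for nucleoplasm and cytoplasm (1277 nt), where the medians of all transcripts were 0.708, 0.733 and 0.697. The same r lay between 0.738 and 0.757 for Nanog and between 0.743 and 0.787 for Sox2. These values describe nucleotides of single files, which share the transcript's sequence.

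**Figure D5:**
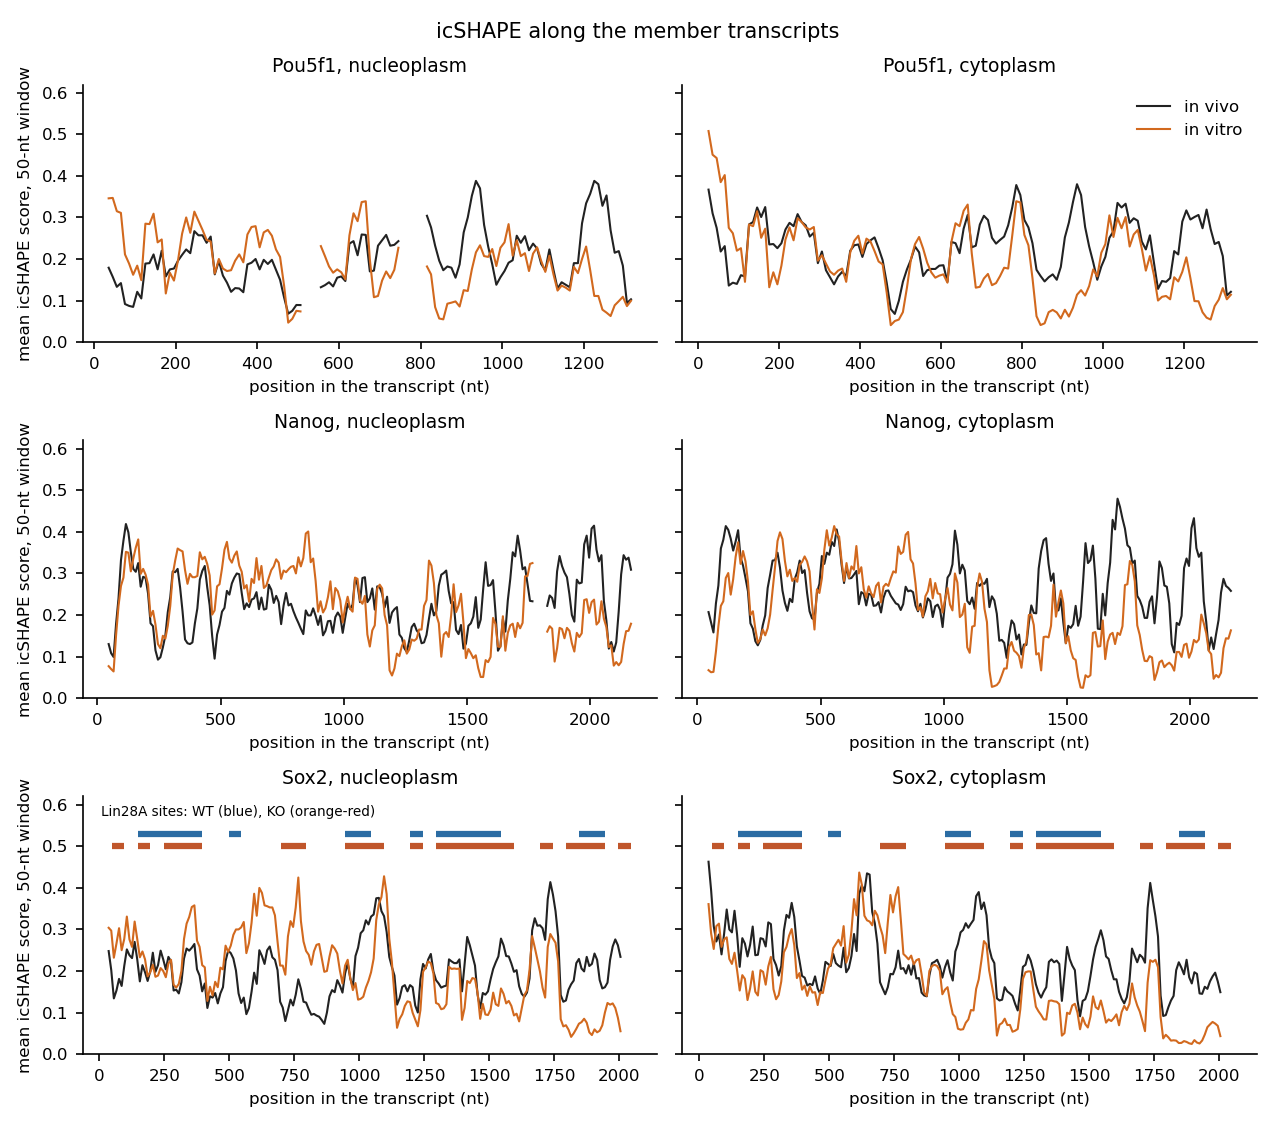
Mean icSHAPE score in 50-nt windows along the Pou5f1, Nanog and Sox2 transcripts (position in nt), with nucleoplasm on the left and cytoplasm on the right, black for in vivo and orange for in vitro. Breaks are windows with fewer than 40 scored nucleotides, and bars above Sox2 mark Lin28A sites in WT (blue) and KO (orange-red) cells. The orange line lies low over the 3′ part of each transcript, and both lines dip after position 451 of Pou5f1.

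Sox2 has no intron, so its Lin28A sites could be set beside its icSHAPE scores. The transcript was placed with its last base at the gene end, an assumption that puts its first base 410 nt after the gene start. Nucleotides in sites of both lists had means of 0.222 in vivo and 0.118 in vitro in cytoplasm, and nucleotides in no site 0.229 and 0.193. In nucleoplasm the means were 0.205 and 0.163 in sites and 0.190 and 0.221 outside them. Nucleotides in shared sites were thus less reactive than the others after refolding, and the in vivo means lay closer together.

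The sites lie more in the 3′ part, where refolded Sox2 was low throughout, so the 3 parts were also read singly. In cytoplasm in vitro, sites of both lists had means of 0.213, 0.0979 and 0.0660 in the first, middle and last part, and nucleotides in no site 0.250, 0.182 and 0.117. In nucleoplasm in vitro the means were 0.258, 0.153 and 0.102 in sites and 0.265, 0.213 and 0.162 outside. For sites of both lists, the site mean was the lower one in each part of both compartments. With sites of either list it was equal in the middle part in nucleoplasm (0.213 in sites and 0.213 outside). The 100 nt in WT sites alone all lay in the first part. Their means in vitro were 0.206 in cytoplasm and 0.240 in nucleoplasm, beside 0.250 and 0.265 for first-part nucleotides in no site. Over the whole transcript, nucleotides in no site had 0.193 and 0.221. The leading WT site, at positions 1297 to 1546, had means of 0.190 in vivo and 0.102 in vitro in cytoplasm.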

How the data were processed

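The members and gene lists were chosen with earlier results of these data known. Of 22 samples, 8 processed files were used. The deposited site lists gave, per site, position, strand, a score and a p-value by the authors. Each deposited icSHAPE file gave an abundance signal per transcript and a fraction from 0 to 1 per nucleotide. Per the submitters' processing notes, Bowtie2, UMI-tools, hg38 and mm10 were used, without roles or versions. No source used here gives the site caller, its control and threshold, or the abundance unit.

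Sites were placed within RefSeq GRCm38.p6 bounds, and 17492 of 21900 protein-coding genes had a strand. Sites sharing at least 1 nt on a strand overlapped. Mean scores used nucleotides scored in both files (at least 100), and a mean 25% higher or 20% lower was the limit. The 3-part comparison used transcripts of at least 1000 nt with 50 scored nucleotides per part. Log ratios used a pseudocount of 1. All 5 members were named, with the 3 pathway genes of most sites per subgroup and those with sites in a single list. Intervals are exact (Clopper-Pearson, 95%). Overlap and ratio code was tested on simulated data. Python 3.11.15, NumPy 2.4.6, pandas 2.3.3, SciPy 1.17.1 and Matplotlib 3.10.9 were used.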

Additional observations from a re-analysis of the deposited data

How the results depend on the processing

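No paired analysis was possible because each group held 1 sample. No difference past the 25% or 20% limit changed sign under the alternatives run. Smaller ones did: the in vivo minus in vitro difference of Pou5f1 on chromatin (-0.00186 with ranks, -0.0182 above 0), in nucleoplasm (-0.00663 above 0, -0.0505 where all 6 files had a score) and in cytoplasm (-0.00368 with ranks, -0.0117 over all 6 files), that of Sox2 in nucleoplasm (-0.00368 with ranks), Sox2 in nucleoplasm minus cytoplasm (0.0107 over all 6 files), and Pou5f1 on chromatin minus nucleoplasm (0.000377 at even positions). Among sites at or above the median score of their list, the members had 13 WT and 17 KO sites. With identical start and end required, 38.5% of WT and 27.8% of KO member sites were shared, where all sites gave 64.5% and 62.8%. Counts of member transcripts with the higher mean changed as follows. In vivo over in vitro on chromatin, 1 of 2 was higher with ranks and 1 of 2 over nucleotides above 0. Over nucleotides scored in all 6 files, which leaves out Nanog, 1 of 2 was higher in nucleoplasm, 1 of 2 in cytoplasm, and 1 of 2 in nucleoplasm over cytoplasm in vivo. At even positions, 2 of 3 were higher on chromatin than in nucleoplasm. KO sites at or above the lowest WT score, added after seeing the data, numbered 34. The causes were not tested. Read depth, which is not given, limits every value.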

Other observations

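The genes most like each member in site numbers and in the within-list rank of the leading site, among 2278 genes with sites in both lists, were Ranbp1, Kars and Tardbp for Pou5f1, and Igf2r, Tmem131 and Tet2 for Nanog. They were Ganab, Polr2a and Cnbp for Sox2, Taok1, Mbtps1 and Rad23b for Esrrb, and Epha2, Dstn and Csnk2a1 for Mycn. Ranbp1, which encodes a Ran-binding protein, had 6 WT and 7 KO sites, as Pou5f1 did. Epha2, an ephrin receptor gene, had 7 and 3, as Mycn did.

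In nucleoplasm and in cytoplasm in vivo, the Sox2 score profile had a stronger repeat of 3 nt, the length of a codon, than most transcripts, though such a repeat was common. The power at that period, relative to the average of 24 neighbouring frequencies, was 13.9 in nucleoplasm in vivo and 10.5 in vitro, and 7.84 and 3.29 in cytoplasm. The medians of all transcripts were 2.64, 1.9, 2.67 and 2.24. A value above 5 was reached by 31.7%, 21.4%, 29.4% and 23.1% of transcripts. On chromatin Sox2 had 0.713 in vivo, below the median of 1.39, and 2.63 in vitro. Pou5f1 and Nanog lay between 0.731 and 3.36 in nucleoplasm and cytoplasm.

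In the 50 nt after a start site, GGAG was present at 2 of 8 annotated member starts, those being Sox2 and 1 of the Nanog starts, beside 34.5% of 32851 annotated starts.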
